A study of Rattus norvegicus with 23 samples.

Results

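The 9 genes described here, *Kcna2*, *Kcna4*, *Kcna5*, *Kcnd2*, *Kcnd3*, *Kcnip2*, *Kcnq1*, *Kcne1* and *Kcnh2*, encode voltage-gated potassium channels that repolarize heart muscle, or subunits of them. They were chosen by name and found through the accession that the array design gives for each probe, which matched 15 probes among the 21047 probes with a gene symbol, and 9 genes of 16544. A level is the log2 of the normalized signal plus 1 of the highest probe of a gene on an array, and a difference is the first region minus the second on that scale. Levels of different genes come from different probes and were not compared with each other.

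RNA of male Wistar rats aged 8 to 11 weeks was hybridised to 23 single-colour arrays. No source names a treatment given to some groups only, or an allele or transgene. Per the paper, the animals were anesthetized with pentobarbital sodium and heparin. The heart and lungs were then perfused with a cold, calcium-free solution that held heparin. The regions were the left atrium next to the pulmonary vein (LA, 4 arrays), the left ventricular mass (LV, 4), the right ventricle, from its free wall (RV, 3), the sinoatrial node region, called sinoauricular node in the labels (SA, 4), the pulmonary vein (PV, 4) and the pulmonary artery, which lies outside the heart (PA, 4). The tissue came from 12 rats, an SA sample joined tissue of 2 rats, and each LV mass was cut into 3 pieces, so LV samples may share an animal. Per the paper SA was isolated separately. Samples of different regions may also share animals, while the fit treated the 23 arrays as independent. No source used here says that the arrays of a region came from separate animals, and p-values therefore measure the spread between samples, which may be technical.

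Repolarization ends the cardiac action potential through potassium currents of different speed. Kv4 pores (*Kcnd2*, *Kcnd3*) with the accessory protein KChIP2 (*Kcnip2*) carry the fast transient outward current, and Kv1.4 (*Kcna4*) carries its slow form. Kv1.2 and Kv1.5 (*Kcna2*, *Kcna5*) carry delayed rectifier currents that are prominent in rodents, KCNQ1 with KCNE1 carries the slow one and ERG1 (*Kcnh2*) the rapid one.

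The arrays had 58.6% to 79.8% of probes well above background, a flag that the scanner software sets for each spot. The 11 arrays in the first row of their slides lay between 72.7% and 79.8% and the 12 in the second row between 58.6% and 69.4%. No region lay wholly on a single slide or in a single row, and the first of the 3 slides held no RV array. The rows were not balanced: most LA arrays were in the first row and most SA and PV arrays in the second. Differences of SA and PV from LA are therefore partly mixed with the row. Genes that mark cardiac muscle differed between PA and the other regions: the summed signal of 6 of them was 27790 to 95901 in PA and at least 1257540 in every other array, and each was above background on at least 1 PA array. As a check of the SA label, 4 pacemaker genes summed to 7250 to 8664 in SA, 4497 to 5826 in PV, 2658 to 4910 in LA and at most 1453 elsewhere.

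**Figure D1:**
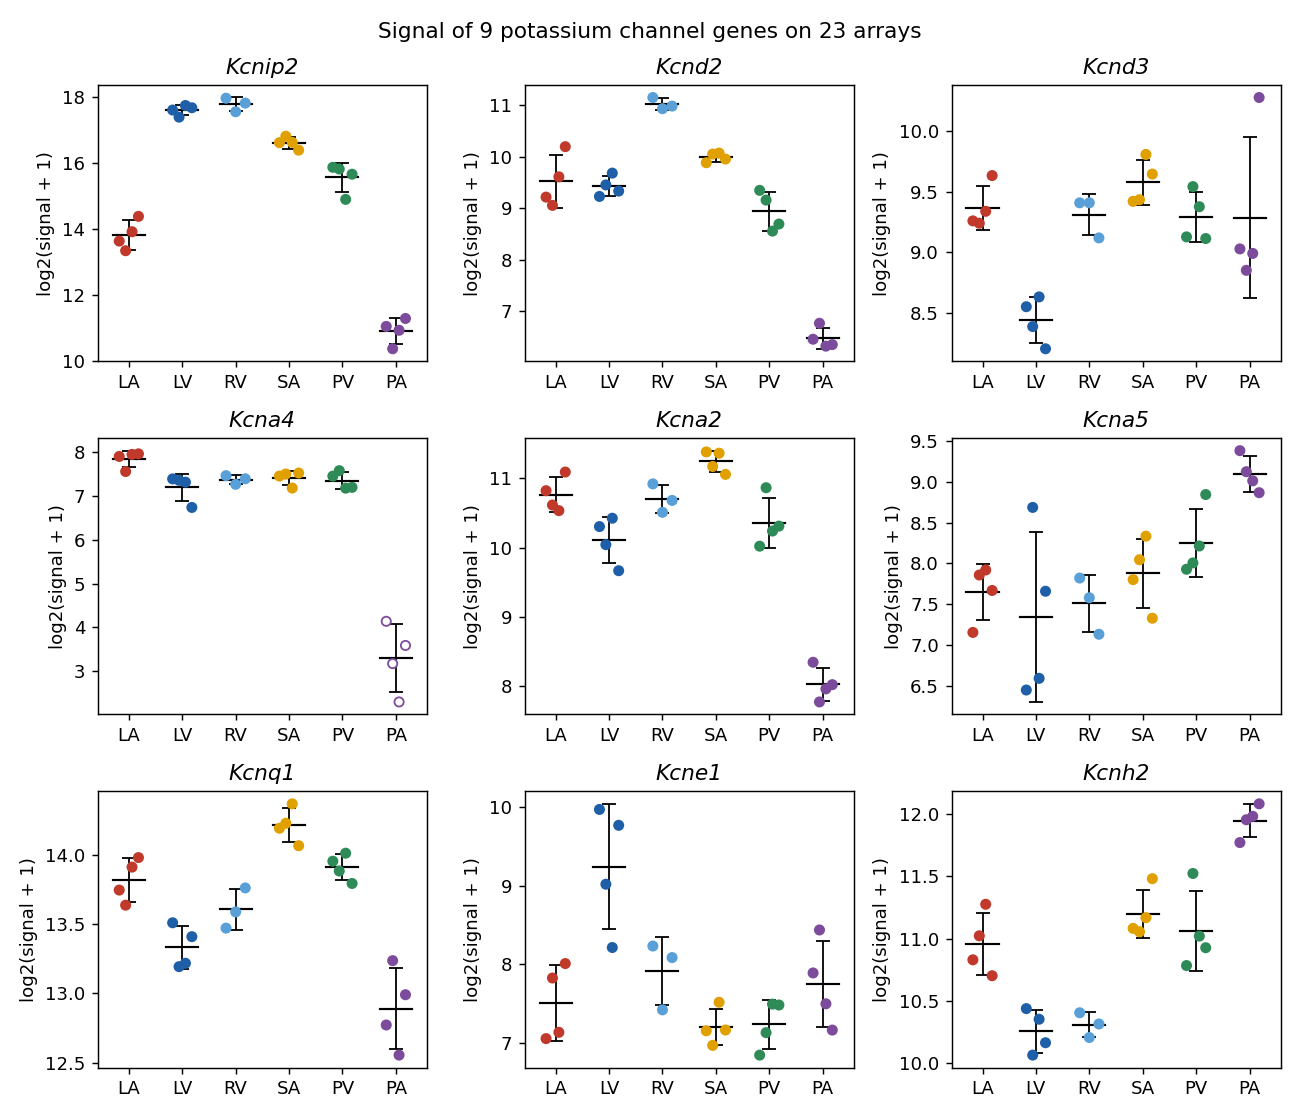
Level, as log2(signal + 1), of each of the 9 genes on the 23 arrays by region, with 1 point per array, a bar at the regional mean and an error bar of 1 SD. Open points are arrays on which the probe was not well above background, which are the 4 PA arrays for *Kcna4*; each panel has its own vertical range, *Kcnip2* spans 10.37 to 17.97 and *Kcnd3* spans 8.20 to 10.28.

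All 9 genes differed among the 6 regions in limma's moderated F-test, where 64.4% of the 16089 genes tested did. The adjusted p was lowest for *Kcnip2* (1.22e-14) and highest for *Kcna5* (0.00402). Every gene was well above background on all 23 arrays except *Kcna4*, which was so on 19. For the 4 genes with more than 1 probe, the same probe was the highest on every array.

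*Kcnip2* (chr1:254590172-254614437, GRCr8) was highest in the ventricles and lowest in the pulmonary artery. The LV arrays read 17.61, 17.40, 17.75 and 17.68 and the RV arrays 17.97, 17.56 and 17.82. The SA arrays read 16.62, 16.82, 16.63 and 16.40, and the PV arrays 15.88, 15.82, 14.90 and 15.67. The LA arrays read 13.64, 13.35, 13.92 and 14.39, and the PA arrays 11.05, 10.37, 10.93 and 11.29. The regional means therefore ran in the order RV, LV, SA, PV, LA and PA, and of these neighbours only RV and LV shared part of their ranges. KChIP2 brings Kv4 pores to the cell surface and slows their inactivation.

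The level of *Kcnip2* in LA was 3.88 ± 0.20 (SE) below that in the ventricles (V, the mean of the LV and RV means), a fold of 14.7 (limma, adjusted p = 3.18e-11). In SA it was lower than in V by a difference of -1.08 ± 0.20 (adjusted p = 0.00043), and higher than in LA by 2.79 ± 0.23, which is 6.94-fold (adjusted p = 3.3e-07). In PV it was higher than in LA by 1.74 ± 0.23 (adjusted p = 4.86e-05) and lower than in SA by a difference of -1.05 ± 0.23 (adjusted p = 0.0163). The last of these calls was lost without SA array 2 (adjusted p = 0.0531). The PV-to-LA difference was between 0.52 and 2.18 within the 3 slides, and 1.84 and 2.14 within the 2 rows. The SA-to-LA difference was 2.84 and 3.21 within the rows. In bulk tissue, fewer cells of a type that expresses a gene and less RNA per cell cannot be told apart. Beside this gradient, 4 genes of ventricular muscle summed to 1111310 to 1464540 in LV and RV and to 326942 to 477277 in LA, SA and PV, and 5 genes of atrial muscle to 237646 to 423208 and to 1286600 to 1758140. Of these, 1 ventricular gene was above background on no SA or PV array. *Myh7*, at 18.25 in LA and 18.60 in LV, made up most of the ventricular sum in LA, SA and PV. The other ventricular genes fell further: *Myl2* (14.37 and 19.10), *Myl3* (13.77 and 18.57) and *Irx4* (5.52 and 12.44). Most of the atrial sum in LV and RV was *Myl4*, at 17.74 in LA and 17.92 in LV. The part of these genes in the *Kcnip2* differences was not tested. The 2 probes of the gene gave similar differences: the second, dimmer one read -3.79 for LA against V, 2.78 for SA against LA and 1.79 for PV against LA.

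*Kcnd2*, the Kv4.2 pore gene (chr4:50741595-51243540, GRCr8), separated the right ventricle from every other region. The RV arrays read 11.15, 10.93 and 10.99, while the LV arrays read 9.23, 9.45, 9.68 and 9.33. The SA arrays read 9.88, 10.05, 10.07 and 9.95, and the LA arrays 9.22, 9.05, 9.61 and 10.20. The PV arrays read 9.35, 9.16, 8.55 and 8.69, and the PA arrays 6.45, 6.76, 6.32 and 6.35. No RV array overlapped another region, no PA array did either, and in between the ranges of SA and LA, LA and LV, and LV and PV overlapped.

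The difference of LV minus RV for *Kcnd2* was -1.60 ± 0.22, so the mean level was 3.03-fold higher in RV (limma, adjusted p = 0.00103). It was the only one of the 9 genes that passed between the ventricles, where 0.522% of all genes passed (0.298% higher and 0.224% lower in LV). The second probe well above background in both ventricles gave -1.39, with means of 8.06 in LV and 9.44 in RV, and the third probe exceeded the background threshold on 3 arrays. Within slides 2 and 3, which held both ventricles, the difference was -1.36 and -1.65, and within the 2 rows it was -1.61 and -1.54. Some marker sums also separated the ventricles. In LV and RV respectively, 3 mesothelial genes summed to 652 to 2048 and 2881 to 4987, 4 fibroblast genes to 103983 to 133702 and 138418 to 172226, and 5 atrial muscle genes to 298883 to 423208 and 237646 to 251526. Of these genes 0 mesothelial, 0 fibroblast and 1 atrial, higher in LV, passed in limma after adjustment, with 2, 2 and 2 at an unadjusted p under 0.05, and their part in the *Kcnd2* difference was not tested. The atrial genes went both ways. Mean levels of *Nppa* (15.58 in LV and 10.96 in RV), *Myl7* and *Myl4* were higher in LV. Those of *Sln* (7.07 and 9.24) and *Mybphl* (6.19 and 7.40) were higher in RV, and *Myl4* made up most of the sum.

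Because the ventricles differed, the comparison of LA with V for *Kcnd2* depended on which ventricle stood for V. Against the mean of both, LA was lower by a difference of -0.70 ± 0.18 (adjusted p = 0.00458), with overlapping arrays. Against LV alone the difference was 0.10 (adjusted p = 0.763), and against RV alone it was -1.51 (adjusted p = 3.5e-05), a choice of reference made after the data were seen. Within slides it was 0.28 on the slide without RV, -1.23 and 0.03. SA against V was -0.23 ± 0.18 (adjusted p = 0.393), made of 0.57 against LV (adjusted p = 0.0471) and -1.03 against RV (adjusted p = 0.00182). PV was lower than SA by a difference of -1.05 ± 0.20 (adjusted p = 0.00785), and PV against LA was -0.58 (adjusted p = 0.0694), which passed without LA array 2 (adjusted p = 0.0265) or PV array 1 (adjusted p = 0.0322). SA against LA was 0.47 (adjusted p = 0.138) and passed without LA array 4 (0.70, adjusted p = 0.012).

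**Figure D2:**
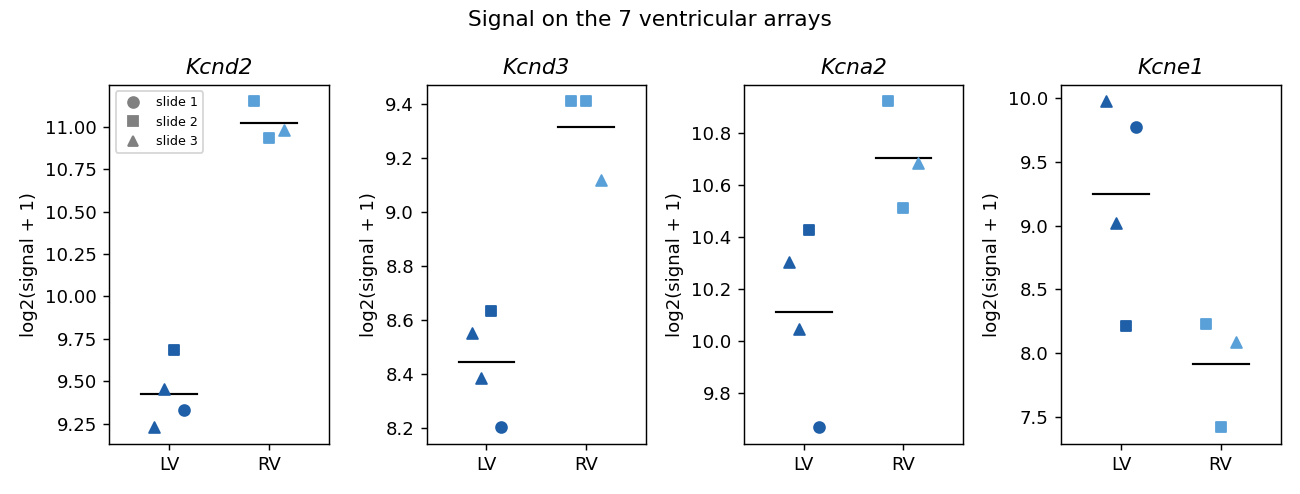
Level, as log2(signal + 1), of *Kcnd2*, *Kcnd3*, *Kcna2* and *Kcne1* on the 4 LV and 3 RV arrays, with a bar at each mean and the marker showing the slide. For *Kcnd2* the RV arrays lie between 10.93 and 11.15 and the LV arrays between 9.23 and 9.68; only this difference passed the adjusted threshold.

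*Kcnd3*, the Kv4.3 pore gene, was lowest in the left ventricle. The LV arrays read 8.55, 8.39, 8.63 and 8.20, the RV arrays 9.41, 9.41 and 9.12, and the SA arrays 9.42, 9.44, 9.81 and 9.65. The LA arrays read 9.26, 9.24, 9.34 and 9.64, the PV arrays 9.13, 9.54, 9.38 and 9.11, and the PA arrays 9.03, 8.85, 8.99 and 10.28. No LV array reached the range of another region, and the other 5 regional means lay between 9.29 and 9.58 with overlapping arrays.

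SA was higher than V for *Kcnd3* by 0.70 ± 0.20 (limma, adjusted p = 0.0121), with no overlap. It was larger against LV than against RV: the difference was 1.14 against LV (adjusted p = 0.000761) and 0.27 against RV (adjusted p = 0.515). LV minus RV was -0.87 ± 0.24 (adjusted p = 0.127) although the arrays did not overlap, and LA against V was 0.49 (adjusted p = 0.0654). The fourth PA array, at 10.28, lay far from the other 3 and enters the spread that all regions share. Without it, LV against RV had an adjusted p of 0.00489 and LA against V of 0.00236, with the same differences. The second probe, well above background on 15 arrays, gave -0.59 for LV against RV and 0.93 for SA against V. It was well above background on only 2 of 4 LV and 2 of 3 RV arrays, with means of 4.68 and 5.26. The sizes of these differences are therefore uncertain.

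Of the 7 genes with an upstream window in the RefSeq table (GRCr8), *Kcnd3* is the one whose 250 bases lie wholly before the outermost start of its gene, which runs from 195626316 to 195843690 on chromosome 2, plus strand. It is shown as the reference sequence next to the Kv4 gene that was low in LV, at chr2:195626066-195626315 (plus strand, 5′ to 3′), with a match to the GC box (GGGCGG or its reverse complement) in capitals.
Kcnd3: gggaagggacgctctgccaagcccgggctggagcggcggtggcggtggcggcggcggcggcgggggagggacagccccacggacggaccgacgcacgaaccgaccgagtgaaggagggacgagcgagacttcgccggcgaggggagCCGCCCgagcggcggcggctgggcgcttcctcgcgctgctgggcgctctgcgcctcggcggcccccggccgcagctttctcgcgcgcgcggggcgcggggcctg
The match lies 104 bases before the start, and 30.5% of the 33469 windows of this length in the table hold a GC box. The window is 79.6% G or C against a median of 51.2% over all windows. Searched on both strands, it held no E-box (CANNTG, in 65.5% of windows), GATA motif (AGATAA, 10.3%), Iroquois motif (ACANNTGT, which contains an E-box, 6.71%), T-box motif (GGTGTGA, 3.22%), TATA box (TATAAA, 12.9%) or cAMP response element (TGACGTCA, 1.59%). These are matches of letters only, and the array data do not bear on binding.

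**Figure D3:**
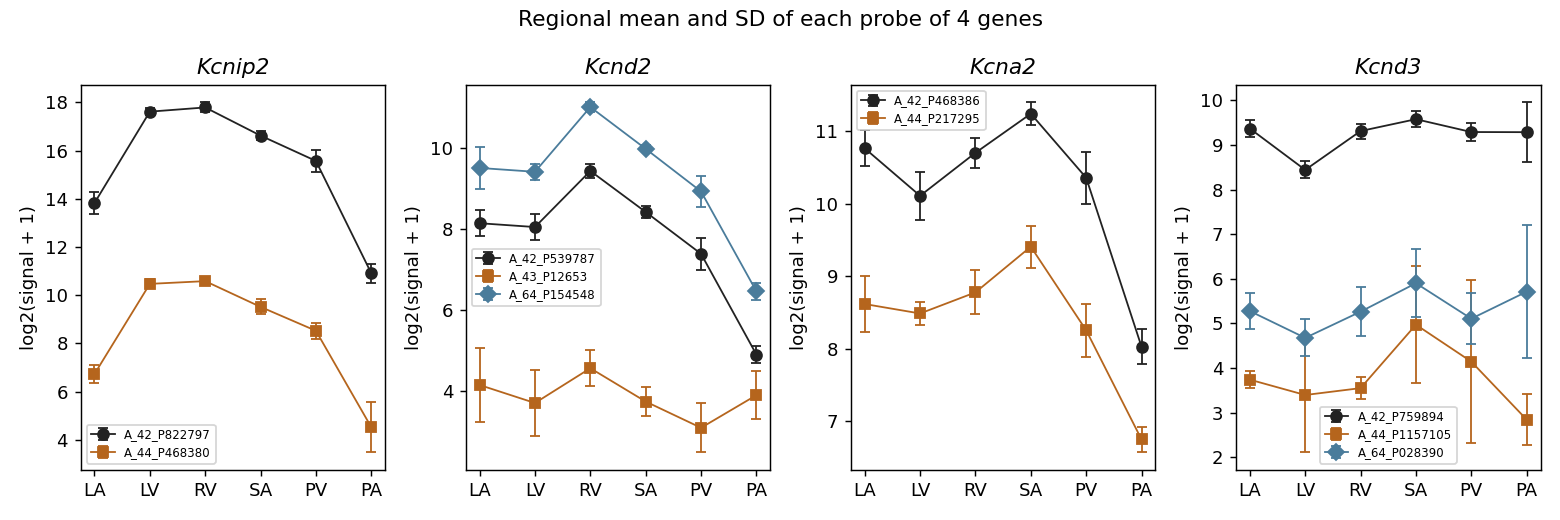
Regional mean level, as log2(signal + 1), with an error bar of 1 SD, of each probe of the 4 genes with more than 1 probe, with regions on the horizontal axis and lines that only join the means of a probe. Both *Kcnip2* probes are highest in LV and RV and lowest in PA, with LA below SA and PV, and the 2 brighter *Kcnd2* probes peak in RV at 11.02 and 9.44, while the third is above background on 3 arrays.

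*Kcna4*, the Kv1.4 pore gene, was measured at a similar level in the 5 regions with heart muscle. The LA arrays read 7.91, 7.56, 7.96 and 7.97, the SA arrays 7.46, 7.51, 7.19 and 7.53, and the PV arrays 7.46, 7.58, 7.18 and 7.20. The LV arrays read 7.40, 7.36, 7.32 and 6.74 and the RV arrays 7.47, 7.27 and 7.40. LA was highest and did not overlap SA or the ventricles, but its difference to V was 0.56 (adjusted p = 0.0683) and that of SA to LA was -0.43 (adjusted p = 0.316). When only LA, LV and RV were fitted, LA against V had the same difference and an adjusted p of 0.0124, and it also passed without PA array 1 (adjusted p = 0.0257) or PA array 3 (adjusted p = 0.0107).

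Of the delayed rectifiers, *Kcna2*, the Kv1.2 pore gene, was highest in the sinoatrial region. The SA arrays read 11.38, 11.17, 11.36 and 11.06, the LA arrays 10.82, 10.62, 10.53 and 11.09, and the RV arrays 10.92, 10.51 and 10.68. The PV arrays read 10.02, 10.87, 10.24 and 10.31, the LV arrays 10.30, 10.04, 10.43 and 9.67, and the PA arrays 8.35, 7.77, 7.96 and 8.02. SA lay above all PV, LV and RV arrays and shared a small part of its range with LA.

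SA exceeded V for *Kcna2* by 0.84 ± 0.17 (limma, adjusted p = 0.000697), with 1.13 against LV (adjusted p = 0.000127) and 0.54 against RV (adjusted p = 0.0659). PV was lower than SA by a difference of -0.88 ± 0.19 (adjusted p = 0.0135), a call lost without PV array 4 (adjusted p = 0.051). PV against LA was -0.41 (adjusted p = 0.181) and passed without PV array 2 (-0.57, adjusted p = 0.0412). LV minus RV was -0.59 (adjusted p = 0.229) with arrays that did not overlap. The second probe gave 0.78 for SA against V and -1.15 for PV against SA, but -0.02 for LA against V where the first gave 0.36.

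*Kcna5*, the Kv1.5 pore gene, did not pass in any comparison between heart regions. The LV arrays were the most scattered at 6.45, 8.69, 6.59 and 7.66, and the RV arrays read 7.82, 7.58 and 7.13. The LA arrays read 7.15, 7.86, 7.92 and 7.67, the SA arrays 7.80, 8.05, 8.33 and 7.33, and the PV arrays 7.93, 8.01, 8.21 and 8.84. The PV arrays lay just above all LA arrays, with a difference of 0.60 ± 0.37 (limma, adjusted p = 0.351), and LV spanned the range of LA, SA and RV.

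*Kcnq1*, the pore gene of the slow delayed rectifier, was highest in SA within a narrow range. The SA arrays read 14.19, 14.23, 14.37 and 14.06, the PV arrays 13.95, 13.88, 14.01 and 13.79, and the LA arrays 13.74, 13.64, 13.91 and 13.98. The RV arrays read 13.47, 13.59 and 13.76, and the LV arrays 13.51, 13.19, 13.22 and 13.41. SA did not overlap any other region.

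SA exceeded V for *Kcnq1* by 0.74 ± 0.11 (limma, adjusted p = 3.76e-05), with 0.88 against LV (adjusted p = 2.56e-05) and 0.61 against RV (adjusted p = 0.00267). SA exceeded LA by 0.39 ± 0.13 (adjusted p = 0.0388), a call that 11 of 36 other settings lost, with adjusted p up to 0.125. LA exceeded V by 0.35 ± 0.11 (adjusted p = 0.0193) with overlapping arrays, and this call was lost without LA array 3 (adjusted p = 0.0634), without LA array 4 (adjusted p = 0.0707) and against RV alone (adjusted p = 0.287).

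*Kcne1*, the accessory subunit that slows KCNQ1, had the reverse order of regional means within the heart, with PA between RV and LA. The LV arrays read 9.97, 9.02, 8.21 and 9.77 and the RV arrays 8.23, 7.42 and 8.09. The LA arrays read 7.05, 7.83, 7.13 and 8.01, the SA arrays 7.15, 6.97, 7.52 and 7.16, the PV arrays 6.84, 7.13, 7.49 and 7.48, and the PA arrays 7.89, 8.44, 7.50 and 7.16. LV was highest and most scattered, and its lowest array fell inside the range of RV.

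*Kcne1* was lower than in V by a difference of -1.07 ± 0.31 in LA (limma, adjusted p = 0.0094) and of -1.38 ± 0.31 in SA (adjusted p = 0.00182), in both with overlapping arrays. Both passed against LV alone and neither against RV alone: the differences were -1.74 (adjusted p = 0.000538) and -2.04 (adjusted p = 0.000152) against LV, and -0.41 (adjusted p = 0.479) and -0.71 (adjusted p = 0.201) against RV. LV minus RV was 1.33 ± 0.37 (adjusted p = 0.125), and 1.67 without LV array 3 (adjusted p = 0.0325). Of 4 macrophage and lymphocyte genes, *Ptprc* and *Cd68* were lower in LA and in SA than in V, while *Cd163* and *Cd3e* did not pass and *Cd3e* was above background on 1 array; their sum was 2942 to 4151 in LV and RV and 1600 to 2561 elsewhere. That list did not separate LV (2942 to 3767) from RV (3124 to 4151), and its part in the *Kcne1* values was not tested.

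*Kcnh2*, the pore gene of the rapid delayed rectifier, was lowest in both ventricles. The LV arrays read 10.44, 10.06, 10.35 and 10.16 and the RV arrays 10.40, 10.20 and 10.31. The LA arrays read 10.83, 11.02, 11.28 and 10.70, the SA arrays 11.08, 11.06, 11.17 and 11.48, and the PV arrays 10.78, 11.52, 11.02 and 10.93. The ventricles overlapped each other and none of the atrial, nodal or venous arrays.

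*Kcnh2* was higher than in V by 0.68 ± 0.13 in LA (limma, adjusted p = 0.00049) and by 0.92 ± 0.13 in SA (adjusted p = 2.81e-05). Each passed against either ventricle alone, with 0.70 and 0.65 for LA and 0.94 and 0.89 for SA against LV and RV. No difference among LA, SA and PV passed for this gene.

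**Figure D4:**
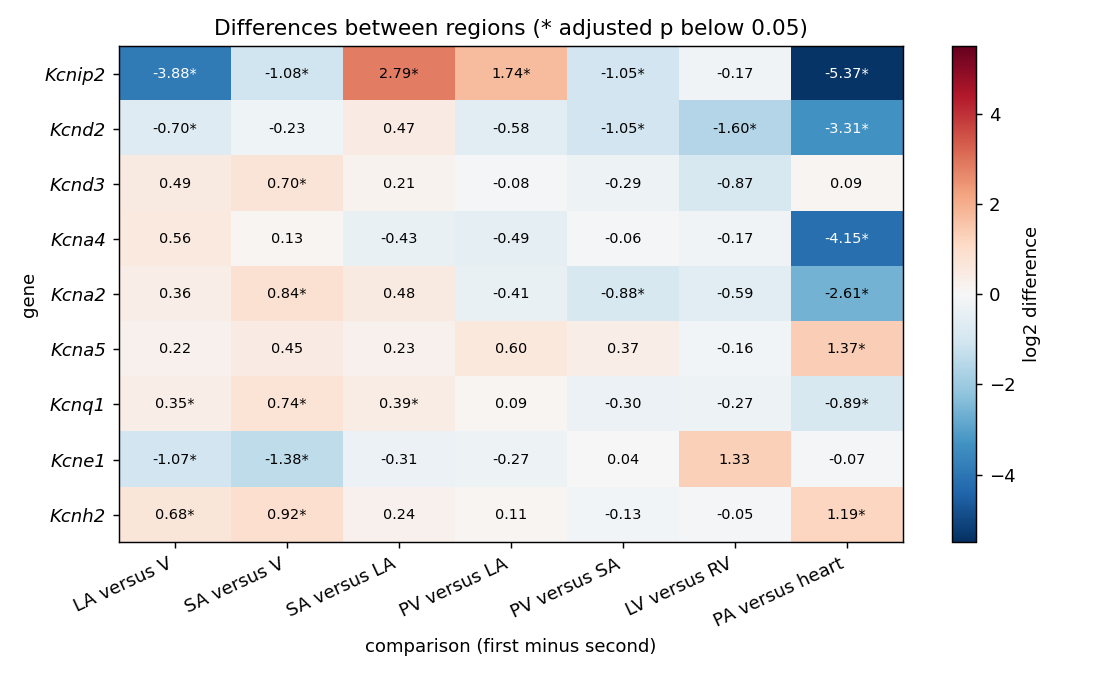
Difference in level, first region minus second on the log2(signal + 1) scale, for 9 genes (rows) in 7 comparisons (columns), with the value in each cell and an asterisk where limma's adjusted p was below 0.05. Cells run from -5.37 to 2.79; V is the mean of LV and RV, heart is the mean of the 5 other regions, comparisons share arrays, and the *Kcna4* value for PA rests on probes not above background there.

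Counted over the comparisons, which share arrays, 5 of the 9 genes differed between LA and V, where 35.4% of all genes tested did (16.9% higher and 18.4% lower in LA). *Kcnh2* and *Kcnq1* were higher in LA, and *Kcnip2*, *Kcnd2* and *Kcne1* were higher in V. The median difference of the 9 was 0.35, against -0.088 over all genes. Between SA and V 6 of the 9 differed (28.1% of all genes, 12.3% higher and 15.8% lower), with *Kcna2*, *Kcnd3*, *Kcnh2* and *Kcnq1* higher in SA and *Kcnip2* and *Kcne1* higher in V, and a median of 0.45 against -0.062. Between SA and LA 2 differed (15.3% of all genes, 7.03% higher and 8.26% lower), *Kcnip2* and *Kcnq1*, both higher in SA, and the median of the 9 was 0.24 against 0.007. With a single ventricle in place of V, 6 of the 9 differed between LA and LV (33.8% of all genes), 3 between LA and RV (27.2%), 7 between SA and LV (26.2%) and 4 between SA and RV (21.7%).

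Markers of other cell types moved with these comparisons. In SA, 6 smooth muscle genes summed to 50479 to 76541, against 26119 to 31919 in LA and 26709 to 35817 in LV and RV, and 5 of the 6 were higher in SA than in V and than in LA, each above background on all SA arrays, while 4 of the 6 were lower in LA than in V (median -0.66). Of 3 adipocyte genes, all were higher in SA than in V, with sums of 10980 to 21611 in SA, 8553 to 10936 in LA and 4033 to 6258 in LV and RV. Nearly all of the LA, LV and RV sums was *Cidea*, and *Adipoq* was above background on no LV array. Of 5 endothelial genes, 3 were lower in LA and 4 lower in SA than in V, with sums of 30784 to 42396 in LA, 30057 to 35670 in SA and 49948 to 60935 in LV and RV. Of 3 mesothelial genes, 2 were higher in LA than in V and 3 higher in LA than in SA, with sums of 16175 to 20467 in LA, 4152 to 8008 in SA and 652 to 4987 in LV and RV. Of 4 lung epithelial genes, 1 was lower in LA and in SA than in V, with sums of 135 to 363 in LA, 236 to 380 in SA and 364 to 901 in LV and RV. Fibroblast genes (4) split, with 2 higher and 2 lower in SA than in V, and 2 higher and 1 lower in SA than in LA. Schwann cell genes (4) gave 2 higher in SA than in V and 1 higher than in LA. Their sum was 2437 to 3047 in SA and 1556 to 2313 in LA. The part of these lists in the LA and SA differences of the 9 genes was not tested.

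PV against LA gave 1 gene of the 9, *Kcnip2*, higher in PV (13.5% of all genes, 6.99% higher and 6.51% lower), with a median of -0.08 against -0.034. PV against SA gave 3, *Kcnip2*, *Kcnd2* and *Kcna2*, each lower in PV (3.49% of all genes, 2.71% higher and 0.783% lower) with a median of -0.29 against -0.039. A fit restricted to these 8 arrays called none of the 9 by limma, with 4 at an unadjusted p under 0.05. In PV, the same 6 smooth muscle genes summed to 77505 to 112352, more than in any SA or LA array. The sum of 4 Schwann cell genes was 4830 to 6756 in PV and at most 3047 elsewhere, and that of 4 autonomic neuron genes 759 to 5924 in PV and 442 to 1564 elsewhere, which overlap. Each of these genes was above background on at least 1 PV array. The sum of 4 fibroblast genes was 222392 to 334081 in PV, 96607 to 170372 in LA and 124206 to 234335 in SA, with 2 of the 4 higher in PV than in LA. The 3 mesothelial genes were each lower in PV than in LA, with a sum of 2729 to 7531 in PV. The 6 cardiac muscle genes summed to 1562550 to 1730250 in PV and 1807070 to 1945610 in SA, and the part of these in the PV differences was not tested.

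The pulmonary artery differed from the mean of the 5 other regions in 7 of the 9 genes, where 59.1% of all genes did (31.4% higher and 27.7% lower in PA). *Kcnip2* was lower by a difference of -5.37 ± 0.18, a fold of 41.4 (limma, adjusted p = 1.29e-15). *Kcnd2* was lower by a difference of -3.31 ± 0.16 (adjusted p = 3.72e-13) and *Kcna2* by -2.61 ± 0.15 (adjusted p = 4.04e-12). *Kcna4* was not well above background on any PA array, with readings of 4.14, 3.17, 2.29 and 3.58, and the mean of the 19 other arrays was at least 6.26-fold higher, measured against the lowest signal well above background on each PA array (adjusted p = 4.44e-13). The PA arrays of these 4 genes lay below every heart array.

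*Kcnq1* was lower in PA by a difference of -0.89 ± 0.10 (adjusted p = 1.21e-07), with arrays of 12.77, 13.24, 12.56 and 12.99, the highest of which lay above the lowest LV array. *Kcna5* and *Kcnh2* had the opposite direction. *Kcna5* read 9.38, 9.12, 9.01 and 8.87 in PA and at most 8.84 elsewhere, a difference of 1.37 ± 0.29 (limma, adjusted p = 0.000363). *Kcnh2* read 11.77, 11.96, 11.98 and 12.08 in PA and at most 11.52 elsewhere, a difference of 1.19 ± 0.12 (adjusted p = 2.33e-08). *Kcnd3* differed by 0.09 (adjusted p = 0.698), or by -0.24 without the fourth PA array (adjusted p = 0.0791), and *Kcne1* by -0.07 (adjusted p = 0.838). In PA the 6 smooth muscle genes summed to 714926 to 839963 against 26119 to 112352 in the other regions, each above background on all PA arrays, and their part in these differences was not tested.

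The other voltage-gated potassium channel genes give a setting for these 9. Of a list of 45, 44 were found on the array and 42 were tested. Between LA and V 9 passed, 3 higher and 6 lower in LA (median -0.33), where 35.4% of all genes did, and between SA and V 9 passed, 4 higher and 5 lower in SA (median -0.03), where 28.1% did. SA against LA gave 3 higher and 0 lower (median 0.18; 15.3% of all genes), PV against LA 3 and 3 (0.17; 13.5%) and PV against SA 3 and 0 (-0.09; 3.49%). LV against RV gave 0 and 0 (median 0.01; 0.522% of all genes), and PA against the heart regions 12 and 6 (-0.02; 59.1%). For LV against RV, limma called none of the 42 after adjustment and 3 had an unadjusted p under 0.05.

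*Kcng2*, a silent Kv6 subunit, had levels of 15.67 ± 0.03 in LA, 15.59 ± 0.14 in SA and 15.03 ± 0.17 in PV (SD, n = 4 each), and 9.08 ± 0.46 in PA. It was higher in LA than in V by 0.50 (limma, adjusted p = 0.00808) and lower in PV than in LA by a difference of -0.64 (adjusted p = 0.0094). *Kcnh6*, which encodes another ERG channel, was higher in LA than in V by 1.04 (adjusted p = 0.000915), the direction that *Kcnh2* also had.

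*Kcnab1*, a Kv1 beta subunit, read 5.82 ± 0.22 in LA, 6.48 ± 0.19 in SA, 7.50 ± 0.15 in PV and 10.10 ± 0.29 in PA (SD, n = 4 each). It was higher in PV than in LA by 1.67 (limma, adjusted p = 1.76e-05) and than in SA by 1.02 (adjusted p = 0.00841), and in SA than in LA by 0.66 (adjusted p = 0.0308). *Kcns3*, a silent Kv9 subunit, was lower in SA than in V by a difference of -1.36 (adjusted p = 1.68e-05) and higher in PV than in SA by 0.98 (adjusted p = 0.0159). *Kcnip3*, a KChIP gene like *Kcnip2*, was higher in PA than in the heart regions by 2.05 (adjusted p = 2.37e-11) where *Kcnip2* was lower, but only 11 of the 19 heart arrays were above background for it.

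*Kcna7*, the Kv1.7 pore gene, was higher in SA than in V by 0.61 (limma, adjusted p = 0.00591) and than in LA by 0.58 (adjusted p = 0.0308), which for SA against V is the direction of *Kcna2*. *Kcna1*, the Kv1.1 pore gene, read 6.27 ± 0.23 in PV and 4.43 ± 0.59 in LA (SD, n = 4 each; adjusted p = 0.00164), with 4 and 3 arrays above the background threshold. *Kcnv2*, a silent subunit, was lower in SA than in V by a difference of -0.54 (adjusted p = 0.00458) and higher in PV than in SA by 0.71 (adjusted p = 0.0134).

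Among 6 genes of proteins that bind these channels or place them in the membrane, *Fhl2*, a LIM-domain protein that binds KCNE1, had means of 16.10 ± 0.16 on the LV arrays (SD, n = 4) and 15.65 ± 0.11 on the RV arrays (SD, n = 3), with LA at 12.38 ± 0.26 and SA at 12.52 ± 0.20 (SD, n = 4 each). It was 11.3-fold lower in LA than in V (limma, adjusted p = 4.8e-13). *Cav3*, the caveolin of muscle, was higher in SA than in V by 0.44 (adjusted p = 0.00978) and than in LA by 0.52 (adjusted p = 0.0143). *Akap9*, which anchors kinases to the KCNQ1 complex, was lower in PV than in LA by a difference of -0.61 (adjusted p = 0.000465), and *Actn2*, the sarcomeric alpha-actinin that binds Kv1.5, was lower in PA by -6.45 (adjusted p = 2.09e-19). Of these 6, 1 was higher and 1 lower in LA than in V (35.4% of all genes passed), 2 higher and 1 lower in SA than in V (28.1%), and 1 higher in SA than in LA (15.3%). In PV 1 was higher and 1 lower than in LA (13.5% of all genes), and 1 lower than in SA (3.49%). None passed between LV and RV in limma (3 at an unadjusted p under 0.05; 0.522% of all genes passed), and 2 were higher and 4 lower in PA than in the heart regions (59.1%). The medians of the 6 were between -0.22 and 0.07 within the heart and -1.83 for PA.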

How the data were processed

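RNA of 6 regions was hybridised to 23 single-colour (Cy3) arrays of the Agilent design SurePrint G3 Rat GE 8x60K v2, and groups are the regions in the labels. Per the file headers, Agilent Feature Extraction (version 11.0.1.1) made background-subtracted, detrended spot signals, with no normalization between arrays. The authors' deposited normalized intensities are linear; on each array 99.6% to 99.8% of probes lay within 2% of the scanner signal times 1 factor, and the 90th percentiles were 3984 to 3988. The precision is limited by the number of arrays, and no spot was saturated.

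From the deposited intensities, 156 of 45596 probes with a missing value were dropped, and probes were named through a RefSeq table (GRCr8). The highest probe of each of 16544 genes was taken on each array, 1 was added and log2 was taken. Genes above 4 on at least 1 array (16089) were fitted with limma (version 3.58.1, R 4.3.3), 1 mean per region over all 23 arrays, with two-sided tests and Benjamini-Hochberg adjustment over all of them, called at adjusted p under 0.05. The methods' analysis of variance served as an alternative. On data simulated for LA against V with 16089 genes, 200 were changed by 1 and 200 by 2 (log2). Of these, 65.5% and 87.5% were called. In the data 35.4% of genes passed for LA against V, a larger share than was changed. The adjustment depends on that share, so these rates do not give the sensitivity in the data. A bound for a gene not well above background used the lowest signal above it on each array.

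The 9 genes, the lists of other channel, partner and marker genes and the tests were chosen with earlier results of these data known. Of the list genes, those named are, per comparison, up to 3 higher and 3 lower with the largest differences among those called that did not overlap and were well above background throughout the higher group. A gene that met this rule is not reported here. Samples with the same replicate number did not deviate together (mean correlation -0.018 over 55 pairs), so numbers were not used to pair samples. Alternatives were other scalings, background correction, filters, pseudocounts, probe rules, blocks, array sets and leaving out each array.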

Additional observations from a re-analysis of the deposited data

Results flagged for a closer look

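In 3 of the 45 groups of 4 arrays that were examined (9 genes in 5 regions), 1 array lay far from the other 3 by Dixon's criterion, which chance alone meets in about 5% of groups. *Kcna4* in LA replicate 2 was 7.56, with the others between 7.91 and 7.97. *Kcna4* in LV replicate 4 was 6.74, with the others between 7.32 and 7.40. *Kcnd3* in PA replicate 4 was 10.28, with the others between 8.85 and 9.03. The last of these bears on other comparisons of *Kcnd3*, as its results without that array show.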

How the results depend on the processing

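The 63 differences of the 9 genes were recomputed under other settings, 2295 values in all, of which 2234 kept the direction and the side of the threshold, 23 lost a call, 22 gained one and 16 changed sign. Of the 25 called differences 1 changed sign, *Kcnd2* for LA against V (0.10 with LV alone as V). *Kcnd2* for SA against V, not called, was 0.57 with LV alone as V. The single-ventricle settings were chosen after the data were seen.

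The other sign changes were in differences that were not called, given here with the range over the fits that each left out 1 array. For PV against LA, *Kcnd3* ranged from -0.16 to 0.011 (positive without LA replicate 4) and *Kcnh2* from -0.047 (without PV replicate 2) to 0.21, and *Kcnq1* was -0.030 with normexp background correction. For PV against SA, *Kcne1* ranged from -0.049 to 0.17, negative also without PV replicate 4 (-0.045) and SA replicate 2 (-0.041), and was -0.031 with normexp. For LV against RV, *Kcna5* ranged from -0.61 to 0.14, positive also without LV replicate 3 (0.088), and *Kcnh2* from -0.11 to 0.0099 (without LV replicate 2), with 0.0046 under normexp. For PA against the heart regions, *Kcnd3* ranged from -0.24 (without PA replicate 4) to 0.23, and *Kcne1* from -0.30 to 0.12, positive also without PA replicate 3 (0.010).

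The count of genes called for SA against LA, 2, became 1 with quantile normalization, with the replicate block and with only the arrays compared, was 3 with normexp, and was 1 to 3 leaving out single arrays. For PV against LA, 1 became 2 with a pseudocount of 16, and was 1 to 2 leaving out arrays. For PV against SA, 3 became 0 with only the 8 arrays compared (unadjusted p-values were below 0.05 for 4 of the 9), and was 2 to 3 leaving out arrays. For LA against V, 5 became 3 with RV alone as V, was 7 with quantile normalization and with only the arrays compared, and was 4 to 6 leaving out arrays. LV against RV gave 1 to 2 leaving out arrays, 2 without LV replicate 3 or PA replicate 4. The replicate block changed no other count. The cause was not tested. Within-slide signs were those of the pooled value for every called difference except *Kcnd2* for LA against V. Probes at low signal limit *Kcna4* in PA to a bound.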

Other observations

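Genes whose levels ran most like those of the 9 over the 23 arrays were listed by Pearson's r, as a description without a test, since the arrays share regions. For *Kcnip2* they were *Mrps34* (r = 0.986), *Mpc1* (0.985) and *Tuba8* (0.984), for *Kcna4* *Rab3b* (0.990), *Rbfox1* (0.989) and *Ppp1r3a* (0.988), and for *Kcnd2* *Scamp3* (0.963), *Zfp955a* (0.949) and *Cdnf* (0.947). The closest gene was *Nudt3* for *Kcna2* (0.962), *Pkig* for *Kcnh2* (0.946), *Dcxr* for *Kcnq1* (0.932), *Gzma* for *Kcne1* (0.905), *Errfi1* for *Kcna5* (0.885) and *Mcm8* for *Kcnd3* (0.826). Among the 9, *Kcna2* and *Kcna4* had an r of 0.930 and *Kcnd3* and *Kcne1* one of -0.740; levels in PA enter all of these.

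Fibroblast genes (4) summed to 383647 to 506386 in PA, and adipocyte genes (3) to 8434 to 16551 in PV and 8274 to 16398 in PA. Lung epithelial genes (4) summed to 167 to 267 in PV and 329 to 457 in PA.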
